A study of Mus musculus with 4 samples.

Results

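The epithelial and general ETS factors comprised 10 transcription factor genes, Elf1, Elf3, Elf4, Ehf, Ets1, Ets2, Etv6, Spdef, Erf and Elk3, out of 18193 genes with a probe set that names 1 gene. They were chosen by name and measured by 25 such probe sets. For each gene the lead probe set was the one whose log2 values averaged highest on the 4 arrays. Expression was profiled on 4 Affymetrix arrays in cell lines 8534 and 8542, which were each derived from a separate primary mammary tumor of a female MMTV-tTA/TOP-ICN1 mouse of FVB/N;B6 background. In these cells the MMTV promoter drives the tet transactivator, which switches on human intracellular NOTCH1 (ICN1) unless doxycycline is present. One group received doxycycline at 2 µg/ml during 24 hours, which sets ICN1 to off (lines 8534 and 8542, 1 array each). The other was left untreated, with ICN1 on (1 array for each line). Both groups carried both transgenes, and no cells without ICN1 were treated, so an effect of the drug and the loss of ICN1 cannot be told apart. In bulk RNA, a smaller share of cells of a type and less RNA per cell cannot be told apart either.

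ETS factors share a DNA-binding domain that recognizes a GGAA core. In epithelia, Elf3, Ehf and Spdef are known for their part in differentiation and secretion, whereas Ets1, Ets2, Elf1 and Elf4 are widely used activators, several of them regulated by MAP kinase signaling. Etv6 and Erf act mainly as repressors. Elk3 is a ternary complex factor that binds DNA beside serum response factor. NOTCH, by contrast, acts through the DNA-binding protein RBPJ, with which its intracellular form enters a complex on target genes.

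The state of the switch was read from NOTCH target genes. Hey1, a NOTCH-induced repressor, gave 96.4 and 101 signal units in the doxycycline-treated lines 8534 and 8542, against 1138 and 762 units in the untreated ones. For Nrarp, a feedback inhibitor of NOTCH, the signals were 219 and 143 units with doxycycline, against 4730 and 4511 units without it. Dtx1 stood at 102 and 89.7 units with doxycycline and at 312 and 334 units without it, and Hes1 at 224 and 300 units with doxycycline and 391 and 396 units without it. Of 9 listed NOTCH switch genes, 8 fell in the limma test described below, at an adjusted p under 0.05. Of all genes tested, 6.95% were called lower. Hes1 did not pass (limma adjusted p = 0.0579). The trimmed mean signal was close to equal on the 4 arrays (97.7 to 101.8 units). MAS5 scaling sets this value, so it is no check of the arrays. As a description of the labelled mammary tumor cells, the luminal keratins Krt8 and Krt18 were at or above 3467 units on every array. The leukocyte marker Ptprc was between 6.08 and 7.20 units and the endothelial marker Pecam1 between 4.50 and 17.4 units. These genes were picked from longer lists, of which other members read differently. Luminal Gata3 lay under 5.52 units, below which 20% of all array values lie, on all 4 arrays. Luminal Muc1 did so on 3 of the 4. The sums of the full lists are given below. Signals of different probe sets cannot be set against each other, so these values give no share of a cell type. The basal keratin Krt14 set the lines apart, at 869 units in line 8534 and 10.0 units in line 8542 with doxycycline, against 1379 and 15.9 units without it.

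A pair of ETS factors rose with doxycycline, Elk3 and Ets2, and none of the 9 tested fell. A change was called at a limma adjusted p under 0.05, in a model with line and treatment as terms, over all 33778 probe sets that passed a filter on low values. Of the 10 genes, 9 passed that filter, and 2 of these 9 were called higher, where 4.76% of the 15070 genes tested were called higher. The count of genes called lower was 0 of 9, where 6.95% of all genes tested were called lower. With the limma p left unadjusted and the same threshold, 4 of the 9 were higher and 0 lower, where 12.4% of all genes tested were higher and 14.1% were lower. By the rule of the study's methods, more than 2-fold in both lines, 1 of the 10 genes was higher (Elk3) and 0 were lower, where 3.09% of all genes were higher and 4.42% were lower by this rule. Both doxycycline arrays lay above both untreated arrays for 2 genes (Ets2 and Elk3), a pattern shown by 21.1% of all genes. Both lay below for 1 gene (Elf4), a pattern shown by 21.8% of all genes. Over the 10 genes the median log2 change was 0.03 in line 8534 and 0.33 in line 8542, against 0.01 and -0.00 over all genes.

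**Figure D1:**
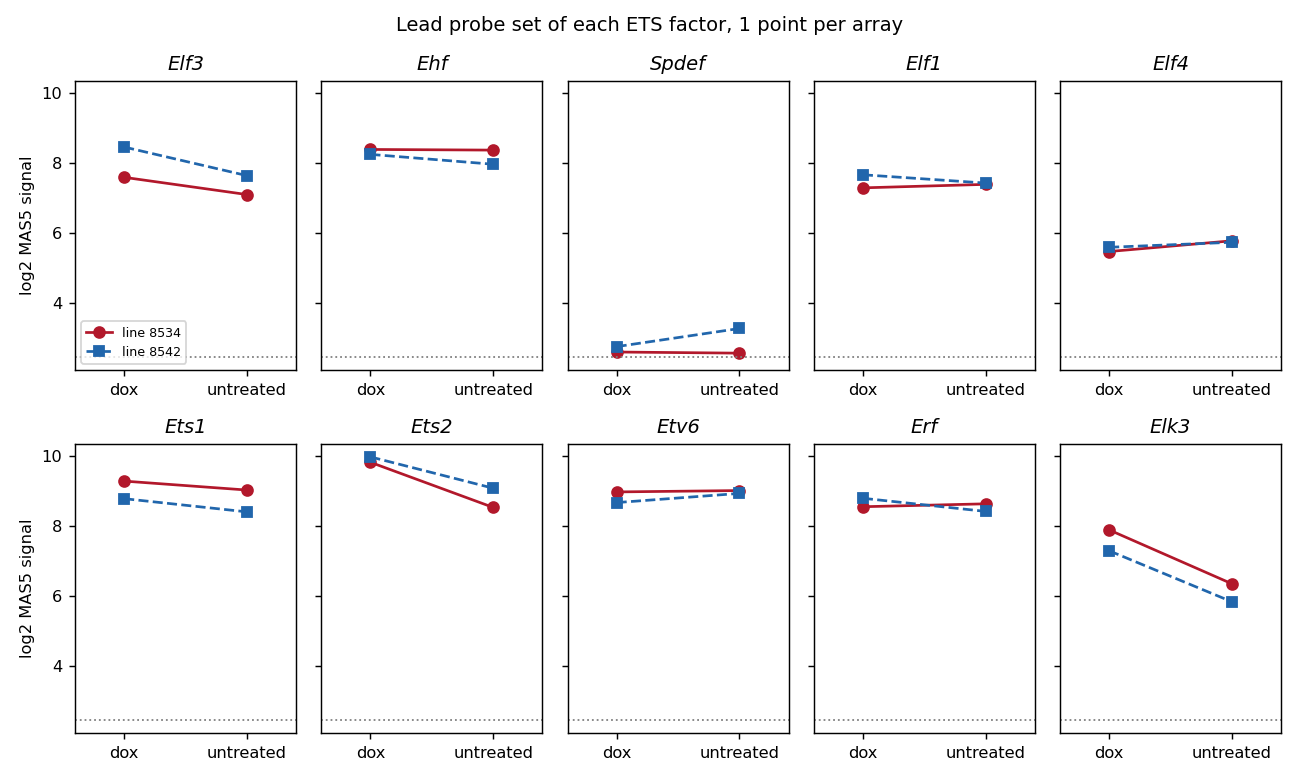
Log2 MAS5 signal of the lead probe set of each of the 10 ETS factors (y axis) with doxycycline (dox) and untreated (x axis), 1 point per array, in line 8534 (red circles, solid lines) and line 8542 (blue squares, dashed lines) and with a dotted line at 5.52 signal units, under which 20% of all array values lie. Ets2 and Elk3 were higher with doxycycline in both lines with no overlap between the groups, whereas Spdef stayed close to the dotted line on every array.

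Elk3 showed the largest change of the 10 genes. Its lead probe set (1448797_at) gave 237 units in line 8534 and 157 units in line 8542 with doxycycline, against 81.5 and 57.1 units without it. Both treated arrays thus lay above both untreated ones, and the increase was 2.90-fold in line 8534 and 2.74-fold in line 8542. The log2 change was 1.50 ± 0.06 (SD over n = 2 lines, with limma adjusted p = 0.00331), with a 95% interval of 1.07 to 1.92, and 1.91% of the genes tested had a higher mean change. A second probe set (1435143_at) gave 86.7 and 71.6 units with doxycycline and 20.4 and 17.4 units without it, and was also called (limma adjusted p = 0.00512). The remaining 2 Elk3 probe sets did not follow. One of them (1417662_at) read 63.8 and 25.7 units with doxycycline and 42.0 and 25.7 units without it, so that line 8542 showed no difference (limma adjusted p = 0.639). The other (1445886_at) was dim and moved in opposite directions, at 13.8 and 28.7 units with doxycycline and 20.5 and 21.9 units without it (limma adjusted p = 0.937).

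Ets2, an activator that MAP kinase phosphorylation stimulates, rose in both lines. Its lead probe set (1416268_at) was at 903 and 1005 units in the doxycycline-treated lines 8534 and 8542, against 370 and 541 units in the untreated lines. The groups did not overlap, and the increase was 2.44-fold in line 8534 and 1.86-fold in line 8542. On the log2 scale the change was 1.09 ± 0.28 (SD over n = 2 lines, with limma adjusted p = 0.00424), with a 95% interval of 0.76 to 1.42. A second probe set (1447685_x_at) read 119 and 138 units with doxycycline and 21.2 and 51.6 units without it, which is 5.60 times as high for line 8534 and 2.68 times for line 8542 (limma adjusted p = 0.00801). Its name ends in _x_at, the suffix for probe sets that may cross-hybridize. The third (1437809_x_at) stayed between 11.3 and 15.5 units on the 4 arrays and was not called (limma adjusted p = 0.780). Both calls depended on the model. They were lost when line was left out of it, with limma adjusted p = 0.160 for Elk3 and 0.167 for Ets2, and when the variance was moderated without an intensity trend, at 0.227 and 0.252. With all probe sets of a gene averaged, Elk3 changed by 0.94 (limma adjusted p = 0.0801) and Ets2 by 0.90 (0.0595) on the log2 scale.

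Elf3, an epithelium-restricted factor of secretory and injured epithelia, was measured by 1 probe set (1416916_at). It read 194 and 353 units with doxycycline in lines 8534 and 8542, against 138 and 200 units without it. Both lines were higher with the drug, by 1.41-fold and 1.76-fold, but the treated array of line 8534 lay below the untreated array of line 8542. The log2 change of 0.65 ± 0.23 (SD over n = 2 lines, 95% interval 0.27 to 1.04) missed the threshold (limma adjusted p = 0.0510). It passed under 4 of the 14 alternatives that gave a test, among them a filter at the 50th percentile, with a limma adjusted p of 0.0361.

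Promoter sequence is shown for these 3 genes, the pair that rose and the one at the threshold. Each window is the 250 bases before the gene's start in RefSeq on GRCm38.p6, read 5′ to 3′ on the gene's strand. Such windows were found for 8 of the 10 genes (10 windows), and for neither Ehf nor Ets1. They were searched on both strands for TGGGAA, the core that RBPJ binds, and for CCGGAA and AGGAAG, which are the ETS core with flanking bases. TGGGAA itself contains the GGAA core. Matches are in capitals. The Elk3 window lies at chr10:93311160-93311409 on the minus strand, the Ets2 window at chr16:95702157-95702406 on the plus strand and the Elf3 window at chr1:135258473-135258722 on the minus strand.
Elk3: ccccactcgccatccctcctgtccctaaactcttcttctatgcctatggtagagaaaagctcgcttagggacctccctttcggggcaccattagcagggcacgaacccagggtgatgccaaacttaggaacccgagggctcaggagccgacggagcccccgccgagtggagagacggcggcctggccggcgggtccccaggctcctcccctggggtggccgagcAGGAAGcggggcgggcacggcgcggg
Ets2: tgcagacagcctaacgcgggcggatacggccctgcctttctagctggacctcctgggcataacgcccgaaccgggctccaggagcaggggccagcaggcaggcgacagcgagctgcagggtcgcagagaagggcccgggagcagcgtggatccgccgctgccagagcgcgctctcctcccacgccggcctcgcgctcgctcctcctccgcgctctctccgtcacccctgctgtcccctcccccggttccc
Elf3: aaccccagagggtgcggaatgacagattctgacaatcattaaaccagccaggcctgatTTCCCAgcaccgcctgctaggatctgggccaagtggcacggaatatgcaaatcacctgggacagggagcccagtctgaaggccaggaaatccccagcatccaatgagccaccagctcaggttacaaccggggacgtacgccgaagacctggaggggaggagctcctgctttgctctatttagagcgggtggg
The Elk3 window held 1 AGGAAG, which starts 26 bases before the gene's start. The Ets2 window held none of the 3 motifs. In the Elf3 window, 1 match to TGGGAA lies on the opposite strand, so that it reads TTCCCA on the gene's own strand, 192 bases before the start. TGGGAA was found in 3 of the 10 windows of the ETS factors (Elf3, Etv6 and Spdef) and in 21.6% of 32851 windows of all genes. AGGAAG was found in 4 of 10 (Elf4, Spdef, Erf and Elk3) and in 29.5% of all windows, and CCGGAA in 0 of 10 and 12% of all. A match describes the letters of the window and is not evidence of binding.

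Neither of the other epithelial factors was called. Ehf, a relative of Elf3 in glandular epithelia, gave 337 and 305 units with doxycycline and 332 and 251 units without it (1451375_at). The groups overlapped, with a log2 change of 0.15 ± 0.19 (SD over n = 2 lines, 95% interval -0.19 to 0.49, limma adjusted p = 0.622). Its other 3 probe sets had limma adjusted p values of 0.757, 0.841 and 0.964. Spdef, a factor of goblet and luminal secretory cells, was measured by 1 probe set (1450220_a_at), at 6.10 and 6.79 units with doxycycline and 5.97 and 9.72 units without it. These signals are next to 5.52 units, under which 20% of all array values lie. The probe set fell under the filter and was not tested, and its log2 changes were 0.03 in line 8534 and -0.52 in line 8542. Of 20 listed genes associated with SPDEF in secretory cells, 13 passed the filter, and 0 of these were called by limma in either direction. Without adjustment, 1 was higher and 2 were lower. With 4.76% and 6.95% of all genes called, and 12.4% and 14.1% without adjustment, these counts over 13 genes do not set the list apart.

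Among the general activators, Ets1 was not called. Its lead probe set (1452163_at) gave 622 and 440 units with doxycycline, against 521 and 338 units without it. The groups overlapped, line 8534 reading higher than line 8542 in both conditions, and the log2 change was 0.32 ± 0.09 (SD over n = 2 lines, 95% interval 0.01 to 0.62, limma adjusted p = 0.199). With 1 array left out and line not in the model, that change lay between 0.00475 and 0.63. All 4 Ets1 probe sets were higher with doxycycline in both lines, and none was called. The largest of these changes was that of 1422027_a_at, at 79.4 and 67.6 units with doxycycline and 56.6 and 36.4 units without it (limma adjusted p = 0.142).

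Elf1, an activator best known in blood cells, read 157 and 204 units with doxycycline and 169 and 173 units without it (1417540_at). It was lower in line 8534 and higher in line 8542, with a mean log2 change of 0.07 ± 0.24 (SD over n = 2 lines, 95% interval -0.33 to 0.47, limma adjusted p = 0.868). Its second probe set (1439319_at) had both treated arrays above both untreated ones, at 55.7 and 76.2 units with doxycycline and 48.5 and 37.6 units without it, but was not called (limma adjusted p = 0.264). Elf4, a relative of Elf1, was the gene of the 10 with both doxycycline arrays (44.6 and 48.5 units) below both untreated arrays (55.2 and 53.6 units, 1421338_at). That difference of -0.22 ± 0.12 on the log2 scale (SD over n = 2 lines, 95% interval -0.80 to 0.35) was not called (limma adjusted p = 0.668), and a second probe set (1421337_at) moved in opposite directions in the lines.

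Neither Etv6 nor Erf was called. Etv6 gave 502 and 407 units with doxycycline and 516 and 488 units without it (1434880_at). Its log2 change was -0.15 ± 0.16 (SD over n = 2 lines, 95% interval -0.46 to 0.16, limma adjusted p = 0.577), while its second probe set (1423401_at) was higher with doxycycline, at 171 and 124 units against 120 and 108 units without it (limma adjusted p = 0.309). Erf read 375 and 443 units with doxycycline and 397 and 342 units without it (1435561_at), lower in line 8534 and higher in line 8542, with a change of 0.15 ± 0.32 (SD over n = 2 lines, 95% interval -0.22 to 0.51, limma adjusted p = 0.659). A second Erf probe set (1422114_at) fell under the filter, with signals of 5.40 and 5.19 units with doxycycline and 2.87 and 7.40 units without it.

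**Figure D2:**
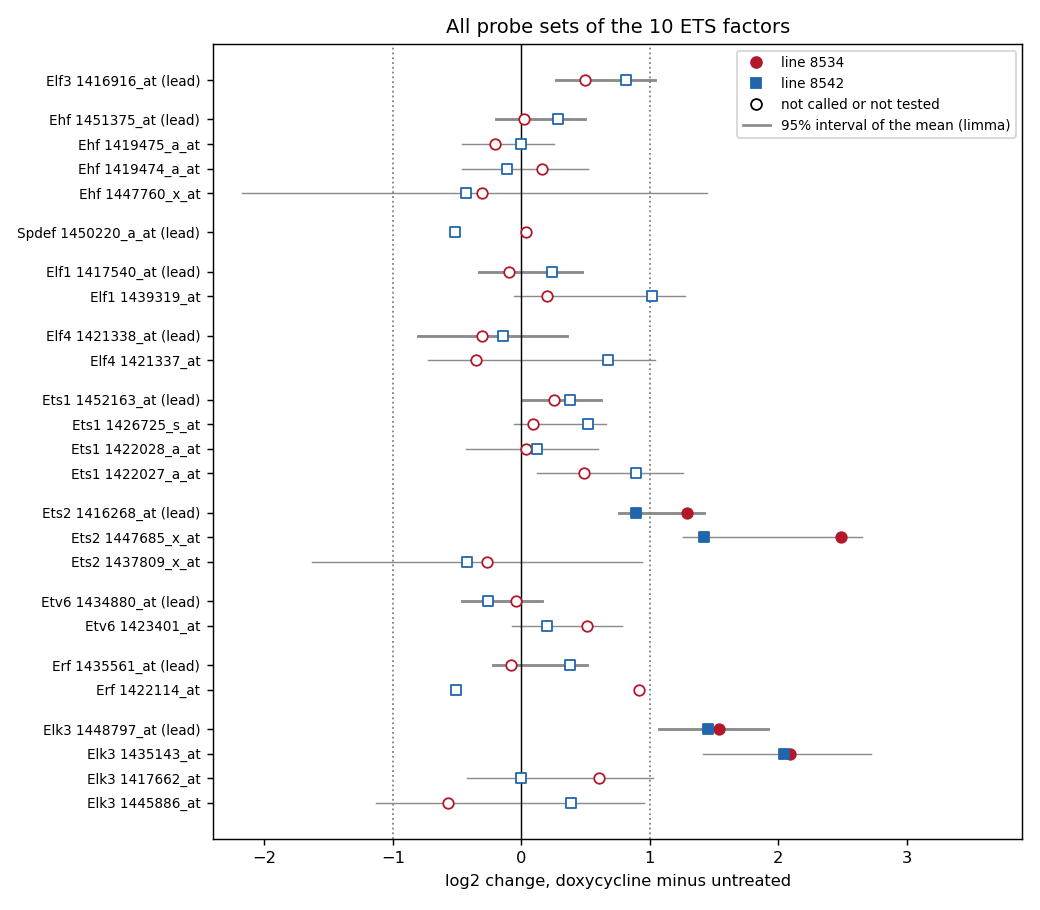
Log2 change, doxycycline minus untreated (x axis), for each of the 25 probe sets of the 10 ETS factors (y axis), in line 8534 (red circles) and line 8542 (blue squares), filled where the probe set was called by limma and open where it was not called or not tested. Bars are the 95% interval of the mean from limma, and dotted lines mark 2-fold. The 4 filled pairs are the lead and 1 further probe set each of Ets2 and Elk3.

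Counted over probe sets, 23 of the 25 passed the filter, 4 were called higher and 0 lower, where 3.69% of all probe sets tested were higher and 5.54% were lower. The 4 calls came from the 2 genes above, and probe sets of 1 gene are not independent of each other. Of the 25, 12 were higher in both lines, 5 were lower in both lines and 8 moved in opposite directions. The share of all probe sets with each pattern is not given here, so these counts show no tilt particular to the ETS factors.

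The lines also differed in the level of some of these factors. Elf3 was lower in line 8534 than in line 8542, by 0.86 log2 units with doxycycline and by 0.54 without it. Ets1 was higher in line 8534 by 0.50 with doxycycline and 0.62 without it, and Elk3 by 0.60 with doxycycline and 0.51 without it. These level differences between the lines were not tested. A difference in response could not be tested with 1 array for each line and condition.

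Of the other 18 ETS family genes listed, 14 had a probe set that names 1 gene and 12 passed the filter. Of these 12, limma called 0 higher and 2 lower, where it called 4.76% of all genes higher and 6.95% lower. Without adjustment the counts were the same, against 12.4% and 14.1% of all genes. Elf5, which drives alveolar differentiation of the mammary gland, fell to 145 and 422 units in the doxycycline-treated lines, against 732 and 1345 units in the untreated lines (1419555_at). Its log2 changes were -2.34 for line 8534 and -1.67 for line 8542 (limma adjusted p = 0.00116). Its second probe set also fell (limma adjusted p = 0.00387). Etv5, a factor of the PEA3 group, fell to 68.3 and 57.9 units with doxycycline, against 137 and 153 units without it (1428142_at). The decrease was 2.00-fold for line 8534 and 2.65-fold for line 8542 (limma adjusted p = 0.0127). Another Etv5 probe set (1450082_s_at) fell 1.88-fold and 1.85-fold and was called (limma adjusted p = 0.0449). The last one (1420998_at) fell 1.81-fold and 1.92-fold and was not called (limma adjusted p = 0.0516). The median change over these 14 genes was -0.22 in line 8534 and 0.04 in line 8542. Neither call held without the intensity trend or without line in the model.

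**Figure D3:**
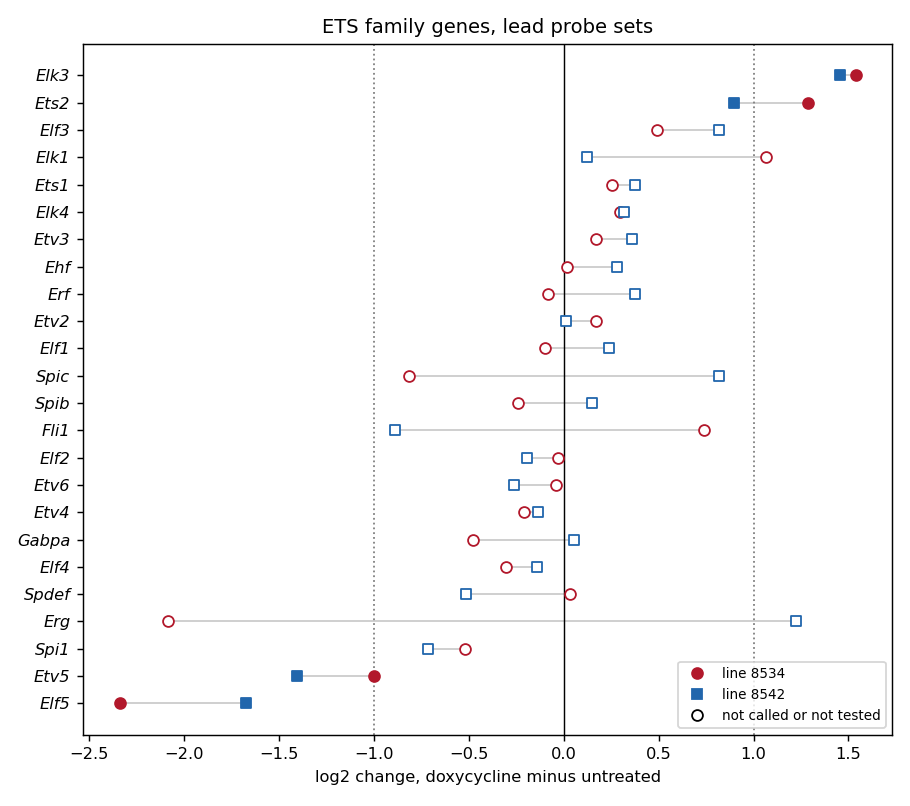
Log2 change of the lead probe set, doxycycline minus untreated (x axis), of the 24 ETS family genes measured (y axis, ordered by mean change), in line 8534 (red circles) and line 8542 (blue squares), filled where limma called the gene, with dotted lines at 2-fold. Elk3 and Ets2 are the called genes at the upper end, and Elf5 and Etv5 those at the lower end.

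Of the cofactors and regulators of ETS proteins, 1 was called. Of 25 listed genes, 16 had a probe set that names 1 gene, all tested. Limma called 1 higher and 0 lower, a share of calls near the 4.76% and 6.95% of all genes. Without adjustment, 6 were higher and 1 lower, where 12.4% and 14.1% of all genes were. The call was Runx1, a DNA-binding partner of several ETS factors, at 246 and 289 units with doxycycline, against 167 and 106 units without it (limma adjusted p = 0.0366). The median of the mean log2 change over the 16 genes was 0.17, against 0.02 over all genes.

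Several genes that textbook accounts place under ETS-dependent control rose. Of 33 listed genes, 30 were tested, of which 8 were called higher and 0 lower, where 4.76% of all genes tested were higher and 6.95% were lower. Without adjustment of the limma p, 13 were higher and 4 lower, where 12.4% and 14.1% of all genes were. Of the 31 measured, 6 were more than 2-fold higher in both lines and 0 were more than 2-fold lower. Over all genes, 3.09% were higher and 4.42% were lower by this rule. The median log2 change of the 31 genes was 0.40 in line 8534 and 0.36 in line 8542, against 0.01 and -0.00 over all genes. Of the 8, the mean change was largest for Met, the receptor of hepatocyte growth factor, with 194 and 84.0 units with doxycycline and 63.1 and 20.8 units without it (limma adjusted p = 0.00388). Hmox1, the heme-degrading enzyme, gave 196 and 136 units with doxycycline and 72.8 and 31.7 units without it (limma adjusted p = 0.00473). The macrophage growth factor gene Csf1 gave 746 and 264 units with doxycycline and 283 and 90.3 units without it (limma adjusted p = 0.00167). Cdkn2a, which encodes cell cycle inhibitors, gave 156 and 171 units with doxycycline and 71.5 and 63.6 units without it (limma adjusted p = 0.00799). Each of these genes has further regulators, and whether any ETS factor took part in these changes was not tested. The list was chosen with earlier results of these data known, so its counts are not an independent result.

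**Figure D4:**
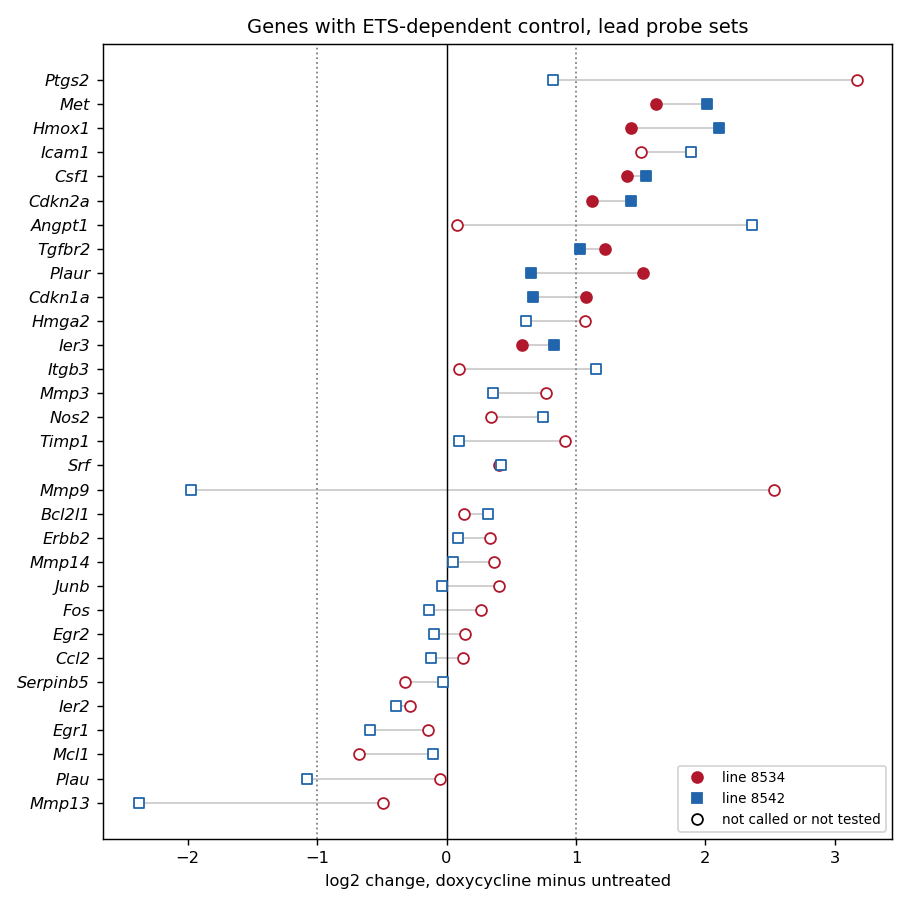
Log2 change of the lead probe set, doxycycline minus untreated (x axis), of the 31 measured genes listed for ETS-dependent control (y axis, ordered by mean change), in line 8534 (red circles) and line 8542 (blue squares), filled where limma called the gene, with dotted lines at 2-fold. The 8 called genes all lie to the right of 0, and the lines differ widely for genes such as Ptgs2 and Mmp9.

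Some luminal and basal markers also rose with doxycycline. Of 12 luminal markers tested, 5 rose and 1 fell, where 4.76% of all genes tested were called higher and 6.95% lower, and the summed signal of the 14 luminal markers measured was 32905 and 26698 units with doxycycline, against 27531 and 24429 units without it. The 10 basal markers summed to 11493 and 647 units with doxycycline, against 6627 and 293 units without it, with 2 of 9 called higher (Cnn1 and Tagln, both of contractile cells). Cnn1 lay under 5.52 units on 1 array. With values raised to that floor its log2 change was 2.14 in line 8534 and 0.39 in line 8542. The basal keratins did not follow them. Krt14 changed by -0.67 in each line (limma adjusted p = 0.0635), and Krt5 by -0.87 in line 8534 and 1.13 in line 8542 (limma adjusted p = 0.918). Leukocyte and fibroblast lists held no called gene among 7 and 9 tested (at an unadjusted limma p under 0.05, 0 leukocyte genes and 1 fibroblast gene, which was lower). The endothelial list held 1 of 7, Tek, which fell. The sums of the 11 leukocyte markers were 438 and 466 units with doxycycline and 401 and 454 units without it. For the 9 endothelial markers they were 216 and 257 units with doxycycline and 337 and 232 units without it, and for the 9 fibroblast markers 1181 and 193 units with doxycycline and 918 and 198 units without it. All of these sums weigh bright probe sets most, so they do not show that a list moved as a whole. The part of the marker shifts in the changes of Elk3 and Ets2 was not tested.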

How the data were processed

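Total RNA of 2 mammary tumor cell lines, treated with 2 µg/ml doxycycline or untreated, was hybridized to 4 Affymetrix arrays. The authors processed the arrays with MAS5 and deposited log2 signals. The log base was inferred from the values. The MAS5 version was not given in the sources used here, nor was its target. The methods name the 430A2.0 array, whereas the table holds 45101 probe sets. The values were used without further scaling after 64 control probe sets were left out, and 34945 of the rest name 1 gene. Signals are 2 to the power of these values, in arbitrary units, so they compare arrays within a probe set and not genes.

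Doxycycline minus untreated was taken within each line. Probe sets with a mean log2 at or above the 25th percentile (2.94) were fitted with limma 3.58.1 (R 4.3.3), with terms for line and treatment, eBayes with an intensity trend and Benjamini-Hochberg adjustment over 33778 probe sets. The fit left 1 residual degree of freedom, to which moderation added 6.18. The script was tested on simulated data. Line is the block because both arrays of a number come from 1 cell line (r = 0.36 between their deviations from the group means). Nothing states that replicate cultures were made. The residual spread is thus the difference between the lines in their change with doxycycline, and array noise is part of it. The p values rest mostly on variance that the moderation took from other probe sets, through the intensity trend. An exact test over 2 pairs cannot go below p = 0.5. Precision is limited by the number of arrays.

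Named were all 10 ETS factors with every probe set, other ETS genes called or past 2-fold in both lines, up to 4 called genes with the largest mean change from each list around them, and 4 NOTCH target genes. Marker genes named outside this rule (Krt8, Krt18, Krt14, Ptprc, Pecam1, Cnn1, Tagln, Krt5, Krt17, Tek), and Ptgs2, Mmp9 and Erg, were chosen after their values were seen. The genes and lists were chosen with earlier results of these data known. Alternatives covered filter, floor, pseudocount, normalization, probe set choice, variance model, block and left-out arrays.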

Additional observations from a re-analysis of the deposited data

Results flagged for a closer look

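The lead probe sets of 3 of the 10 ETS factors moved in opposite directions in the lines. The share of all genes that did so is not given here, so this count does not set the ETS factors apart. Elf1 changed by -0.10 in line 8534 and 0.24 in line 8542 on the log2 scale, Erf by -0.083 in line 8534 and 0.38 in line 8542, and Spdef by 0.032 in line 8534 and -0.52 in line 8542. Among other ETS genes, Erg, known from endothelium and prostate cancer fusions, was singled out after its values were seen. It gave 4.01 and 176 units with doxycycline and 17.0 and 75.3 units without it (1440244_at), a change of -2.08 in line 8534 and 1.22 in line 8542 (limma adjusted p = 0.784 for the mean). The signal of 4.01 units lies under 5.52 units, below which 20% of all array values lie, so the size of the change in line 8534 is not well measured. With values raised to that floor it is -1.62. The difference between the lines was not tested for any of these genes, since each line had 1 array per condition.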

How the results depend on the processing

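The count of ETS factors called higher was 2. It was 3, with Elf3 added, under the 50th percentile filter, the floor, the pseudocount and quantile normalization, and it became 0 with all probe sets of a gene averaged, without the intensity trend and with no replicate block (line left out of the model). It was also 0 each time 1 of the 4 arrays was left out with no block, so that the lowest and highest counts were 0 and 0. The other ETS genes called lower, 2 in the report, became 0 without the trend and 0 with no replicate block. Over the whole array, 0 probe sets were called higher and 0 lower without the trend, and 9 and 83 without the block, against 1245 and 1872. The number above 2-fold higher in both lines was 1 (Elk3) and became 0 with all probe sets averaged. With one line alone it was 1 (line 8542) or 2 (line 8534, which adds Ets2), and limma counts could not be computed there for want of residual degrees of freedom. Over all alternatives the log2 change lay between 0.94 and 1.79 for Elk3 (limma adjusted p 0.00174 to 0.509), between 0.82 and 1.37 for Ets2 (0.00206 to 0.417) and between 0.22 and 1.09 for Elf3 (0.0361 to 0.878). Averaging probe sets turned the uncalled changes of Ehf to -0.074 and of Etv6 to 0.10. With arrays left out in turn the change of Ehf lay between -0.052 and 0.35, that of Elf1 between -0.12 and 0.26, that of Etv6 between -0.30 and 0.00139, that of Ets1 between 0.00475 and 0.63 and that of Erf between 0.025 and 0.27. With no line term, leaving out an array brings part of the level difference between the lines into the change. Averaging brings in the other probe sets of a gene. Spdef, near the lowest signals, could be tested in 1 alternative alone, and its level is poorly measured.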
